A study of Mus musculus with 16 samples.

Results

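The 39 Hox cluster genes were examined in 16 mouse pluripotent stem cell lines, each sequenced as 1 RNA library. The members were all rows of the deposited expression table whose name is Hox followed by a cluster letter (a to d) and a position number, 39 of 22552 genes. Hoxa had 11 members, Hoxb 10, Hoxc 9 and Hoxd 9.

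All lines came from 129-M2rtTA adipocyte progenitor cells (APCs) of mice made entirely from an induced pluripotent stem cell line, so every line carried the same doxycycline-inducible reprogramming factors and the Rosa26-M2rtTA transactivator. AN lines were embryonic stem cells derived after transfer of an APC nucleus into an enucleated oocyte (ntESCs), with the blastocysts plated on mouse embryonic fibroblast feeders. AI lines were induced pluripotent stem cells (iPSCs) made by adding doxycycline to APCs. The labels give the derivation of each line, and the study's text gives its developmental state. F marks lines that gave full-term mice by tetraploid complementation, a test in which the embryo proper comes from the injected cells, and P marks lines that did not. AN F held 4 lines, which were AN1, AN9, AN15 and AN20, and AN P held 5, which were AN7, AN2, AN3, AN5 and AN6. In AI F there were 4, namely GS32 with AI3, AI7 and AI10, and AI P held 3, namely GS4 and GS9 with AI9. GS4, GS9 and GS32 were previously identified lines, and GS4 and GS32 were sequenced at passages 17 and 13. The titles of GS32 and GS9 conflict with their source field, which gives GS4, so every AI value depends on the titles. Feeder and APC libraries were not analysed here.

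Hox genes encode homeodomain transcription factors that set position along the body axis. They lie in 4 clusters, and in the embryo genes with low position numbers are switched on earlier and more anteriorly than those with high numbers. In pluripotent cells the clusters are held silent by Polycomb complexes, whereas fibroblasts keep the Hox pattern of the body site they came from. In the mm9 annotation Hoxa spanned chr6:52105366-52210874 on the minus strand, Hoxb chr11:96055630-96229570, Hoxc chr15:102751534-102867274 and Hoxd chr2:74506367-74603200, the last 3 on the plus strand.

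The stem cell identity of the lines was checked with 11 pluripotency markers, all of which were above 7 FPKM in every line. Pou5f1, the core pluripotency factor, ranged from 615 FPKM in AI10 to 1222 FPKM in GS9. FPKM are fragments per kilobase of transcript, scaled to the mapped fragments of the library, so levels can be set beside each other between genes. Depth relative to AN1, estimated from the smallest steps between low values, ranged from 0.961 to 1.24, and the reads behind each value are otherwise unknown.

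These 4 stretches of upstream sequence are shown because their genes represent the different patterns across lines described below. Hoxb1 and Hoxd1 varied with primitive streak markers, and Hoxb8 and Hoxa5 varied with fibroblast markers. Each is the 250 bases before the annotated RefSeq start, written 5' to 3' along the gene, with CpG dinucleotides, the sites of DNA methylation, in capitals.
Hoxb1, upstream window on GRCm38.p6 chr11:96365508-96365757, plus strand: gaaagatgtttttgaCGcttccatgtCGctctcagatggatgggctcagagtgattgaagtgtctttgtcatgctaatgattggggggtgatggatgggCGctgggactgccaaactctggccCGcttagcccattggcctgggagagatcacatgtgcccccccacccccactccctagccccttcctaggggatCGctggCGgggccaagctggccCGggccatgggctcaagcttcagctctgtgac
Hoxd1, upstream window on GRCm38.p6 chr2:74762730-74762979, plus strand: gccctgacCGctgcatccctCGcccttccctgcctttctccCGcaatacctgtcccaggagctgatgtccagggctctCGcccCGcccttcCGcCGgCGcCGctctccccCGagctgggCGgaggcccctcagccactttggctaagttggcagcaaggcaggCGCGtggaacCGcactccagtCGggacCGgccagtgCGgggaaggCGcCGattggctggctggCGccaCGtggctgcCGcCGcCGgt
Hoxb8, upstream window on GRCm38.p6 chr11:96281655-96281904, plus strand: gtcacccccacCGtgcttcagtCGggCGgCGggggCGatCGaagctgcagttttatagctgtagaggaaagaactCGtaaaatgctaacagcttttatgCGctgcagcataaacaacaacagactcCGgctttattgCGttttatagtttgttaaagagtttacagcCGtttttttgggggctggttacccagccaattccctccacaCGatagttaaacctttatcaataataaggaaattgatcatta
Hoxa5, upstream window on GRCm38.p6 chr6:52204588-52204837, minus strand: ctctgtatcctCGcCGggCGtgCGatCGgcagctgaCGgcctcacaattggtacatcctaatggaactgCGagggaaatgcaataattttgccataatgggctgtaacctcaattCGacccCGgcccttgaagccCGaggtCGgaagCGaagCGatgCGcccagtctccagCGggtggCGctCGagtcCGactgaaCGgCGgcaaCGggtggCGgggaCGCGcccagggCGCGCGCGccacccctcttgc
The table of RefSeq promoters held 24 windows for 22 of the 39 members. The CpG count was 7 for Hoxb1, 24 for Hoxd1, 12 for Hoxb8 and 28 for Hoxa5, so it did not follow the pattern across lines. The median over the 24 windows was 12.5 CpG, beside 6 for all 32851 windows, and 15 of the 24 (62.5%) held at least 10, beside 37.8% of all windows. Of 4 motifs searched on both strands, TTTATG, the core of Cdx sites, was in 20.8% of the Hox windows and 10.8% of all. AGGTCA, a nuclear receptor element not particular to retinoid receptors, was in 25% and 14.0%. TGATNNAT, a TALE and Hox type motif added after the sequences were seen, was in 16.7% and 7.68%, and TATAAA in 16.7% and 12.4%. These shares describe letters in the windows and rest on few Hox genes. The TGATNNAT motif was present in the windows of Hoxb1 and Hoxb8, and TTTATG in that of Hoxb8.

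The members share the homeobox, which raises the question of whether 50-nucleotide reads could be exchanged between them. Of 741 pairs of members, 5 shared an exact stretch of at least a read length in their annotated protein-coding transcripts, and 2 of these pairs joined different clusters. The other 3 pairs were overlapping neighbours. Hoxb7 and Hoxb8 shared 27% of the possible read positions of Hoxb7 and 37.4% of those of Hoxb8, Hoxd3 and Hoxd4 shared 20.5% and 42.2%, and Hoxa2 and Hoxa3 shared 9.27% and 4.12%. The Hoxa3 gene models also span Hoxa4, Hoxa5 and Hoxa6, and the kit named in the labels does not mark strand, so values of overlapping or antisense genes cannot be fully separated.

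Hox levels were low in all groups, but few members were at 0. The member means over 16 lines ran from 0.0976 FPKM for Hoxc11 to 5.49 FPKM for Hoxb2, with a median of 0.943 FPKM beside 1.51 FPKM for all genes in the table. Of 39 members, 28 had a mean of at least 0.5 FPKM, 17 of at least 1 and 6 of at least 2. Of the 624 values, 13 were 0, and 34 members were above 0 in every line. AI10 was the only line in which any member passed 10 FPKM, with Hoxb2 at 13.2 FPKM.

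The highest members were Hoxb2 (5.49 ± 2.77 FPKM, SD, n = 16), a hindbrain patterning gene, Hoxb9 (3.54 ± 1.38), Hoxc6 (3.07 ± 1.01), Hoxc8 (2.77 ± 1.1) and Hoxa5 (2.52 ± 0.816). Hoxb2 lay above Hoxb9 in 14 of 16 lines. Further down the order neighbours did not separate, and Hoxc8 exceeded Hoxa5 in 10 of 16 lines. Hoxa5 was the highest member of Hoxa, Hoxc6 of Hoxc and Hoxd13, which patterns digits and the hindgut, of Hoxd (1.69 ± 0.489 FPKM). The Hoxd members between Hoxd1 and Hoxd12 all had lower means than Hoxd13.

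The other 11 members had means under 0.5 FPKM and were left out of the model fits, namely Hoxa6, Hoxa13, Hoxb13, Hoxc5, Hoxc11, Hoxc12, Hoxd1, Hoxd3, Hoxd4, Hoxd10 and Hoxd12. For 6 of these the values fell on multiples of one step, with a mean distance of at most 0.05 steps. If 1 step is 1 read, Hoxc11 had about 29 reads in all 16 lines together and at most 6 in a line, Hoxc12 33 and at most 6, Hoxa6 56 and at most 7, and Hoxd12 103 and at most 13. Zeros of these genes therefore mark levels near the limit of detection.

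**Figure D1:**
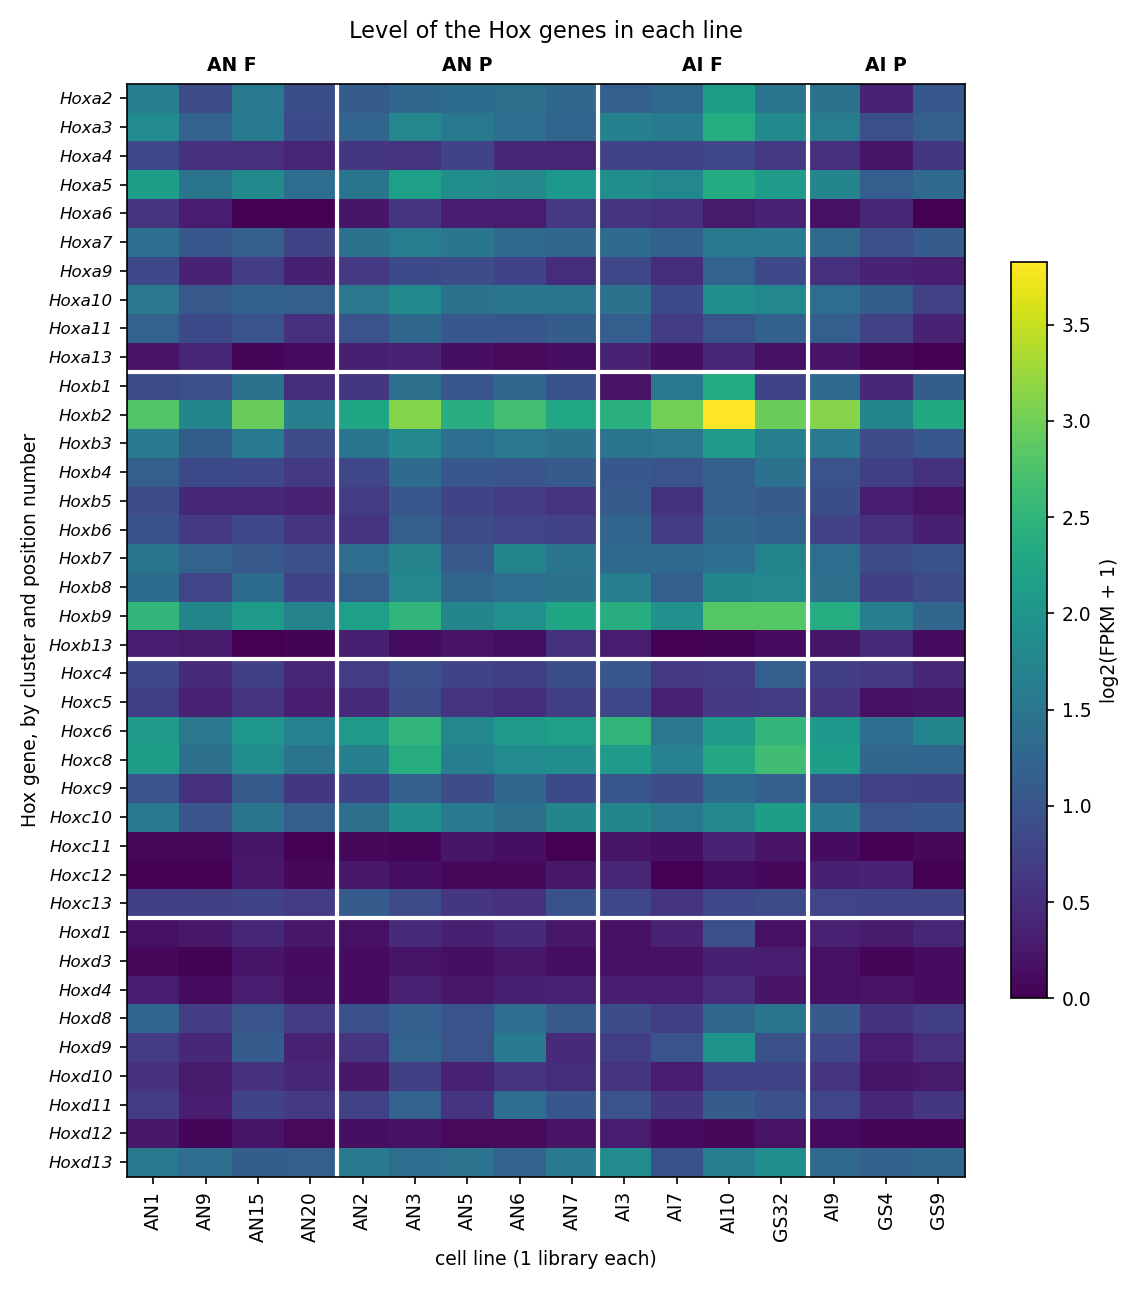
Heat map of log2(FPKM + 1) for 38 Hox genes (rows, by cluster and position number) in the 16 lines (columns, by group, 1 library each). Hoxb2 in AI10 is the brightest cell, at 13.2 FPKM, and the columns of AN9, AN20, GS4 and GS9 are the darkest.

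The summed Hox level differed between lines by more than it did between most groups. The sum was 55.5, 31.7, 48.8 and 27.4 FPKM in AN1, AN9, AN15 and AN20, and 41.3, 65.8, 44.2, 51.0 and 47.3 FPKM in AN2, AN3, AN5, AN6 and AN7. It was 52.6, 43.5, 82.9 and 68.4 FPKM in AI3, AI7, AI10 and GS32, and 52.3, 25.1 and 29.5 FPKM in AI9, GS4 and GS9. AN9 and AN20 were lowest among AN lines, and GS4 and GS9 among AI lines. Both pairs of groups overlapped, since AN1 lay above 4 of the 5 AN P lines and AI9 lay above AI7.

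The share of each cluster in the sum was steadier than the sum itself. Hoxb made up 31.7% (AN20) to 42.4% (AI7), Hoxa 26.5% to 35.4%, Hoxc 16.3% to 27.5% and Hoxd 9.35% to 15.6%. The number of members at or above 1 FPKM ran from 8 in GS4 to 24 in AN3 and AI10.

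**Figure D2:**
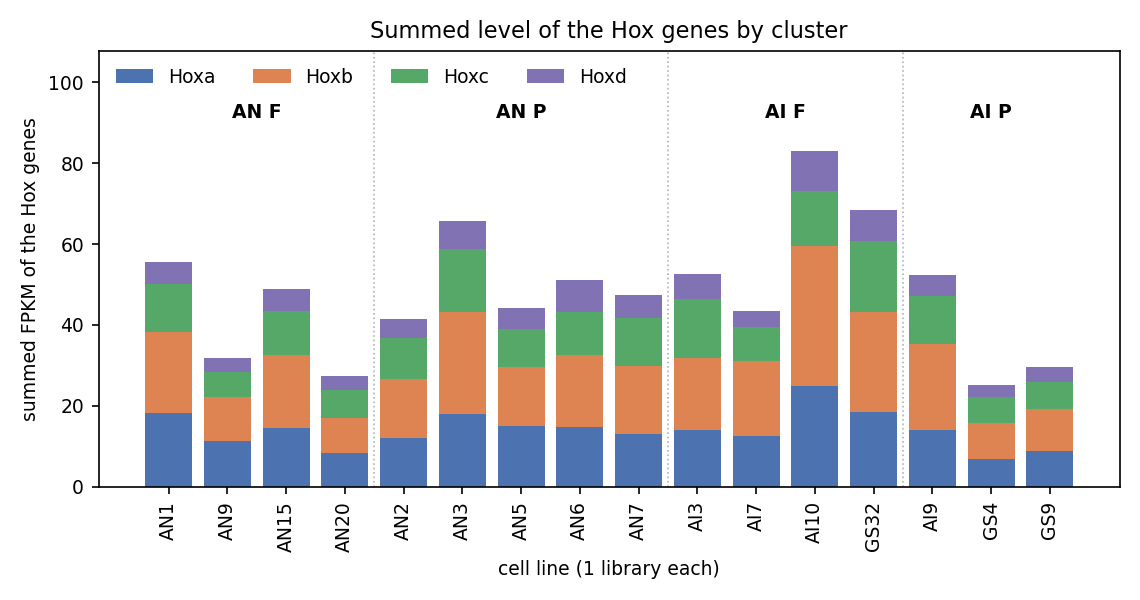
Summed FPKM of the Hox genes in each line, stacked by cluster, with lines ordered by group. AI10 reaches 82.9 FPKM and GS4 25.1 FPKM, and the groups overlap within both AN and AI.

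AN F was compared with AN P to ask whether Hox levels go with developmental state in ntESCs. No Hox gene passed the test, although most were lower in AN F, with a median difference of -0.19 on the log2(FPKM + 1) scale. Of the 28 members tested, 26 were lower and 2 higher in AN F, and the median over all 13185 tested genes was -0.01. With limma and Benjamini-Hochberg adjustment 0 members and 0% of all genes had an adjusted p under 0.05, and the smallest adjusted p of a member was 0.636. At an unadjusted p under 0.05, 3 members were lower in AN F, beside 2.99% of all tested genes that were lower, and 0 members were higher. Differences on this scale understate the change of genes near or below 1 FPKM.

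Hoxa7, a thoracic patterning gene, was at 1.64, 1.05, 1.22 and 0.728 FPKM in AN1, AN9, AN15 and AN20. It was at 1.69, 2.04, 1.85, 1.48 and 1.46 FPKM in AN2, AN3, AN5, AN6 and AN7. Only AN1 reached the range of AN P. The difference was -0.34 (SE 0.124), with an unadjusted limma p of 0.0230 and an exact two-sided permutation p of 0.0476, the smallest of any member.

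Hoxa10, which acts in uterus and limb, was at 1.85, 1.11, 1.27 and 1.23 FPKM in the AN F lines in the same order and at 1.86, 2.56, 1.71, 1.77 and 1.78 FPKM in the AN P lines. The difference was -0.32 (SE 0.116, unadjusted limma p = 0.0225, exact permutation p = 0.0635). Hoxd11, which patterns forearm and kidney, was at 0.609, 0.236, 0.698 and 0.554 FPKM in AN F and at 0.679, 1.29, 0.50, 1.60 and 1.05 FPKM in AN P (difference -0.39, SE 0.168, unadjusted limma p = 0.0434, exact permutation p = 0.111). For Hoxa10 only AN1 reached the range of AN P, and for Hoxd11 AN1, AN15 and AN20 did. The smallest exact p that 4 against 5 lines allow is 0.0159.

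Hoxa4 was among the tested members with a positive difference (0.01, SE 0.109). No tested member had all AN F lines below all AN P lines, beside 0.713% of all tested genes.

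AI F was compared with AI P to ask the same of iPSCs. The differences were larger and mostly positive, with a median of 0.45 over the 28 tested members beside -0.04 over all tested genes, and again none passed the test. Of the 28, 27 were higher in AI F and Hoxc13 was the exception (-0.02, SE 0.0912). With limma and the same adjustment 0 members and 0% of all genes were called, with a smallest adjusted p of 0.521 among members. At an unadjusted p under 0.05, 9 members were higher, beside 3.47% of all tested genes that were higher, and 0 were lower.

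These 9 were Hoxa3, Hoxa4, Hoxa5, Hoxa9, Hoxb3, Hoxb4, Hoxb6, Hoxb8 and Hoxc10, with differences from 0.31 for Hoxa4 to 0.63 for Hoxa3 and Hoxa5. The smallest unadjusted p was that of Hoxb6 (0.56, SE 0.170, limma p = 0.0129, exact permutation p = 0.114), a forelimb and trunk gene. Hoxb6 was at 1.37, 0.609, 1.40 and 1.27 FPKM in AI3, AI7, AI10 and GS32 and at 0.679, 0.436 and 0.266 FPKM in AI9, GS4 and GS9. AI7 lay below AI9.

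Hoxa5, which acts in lung and cervical vertebrae, was at 2.67, 2.44, 4.13 and 3.27 FPKM in AI F and at 2.35, 1.20 and 1.47 FPKM in AI P (difference 0.63, SE 0.197, unadjusted limma p = 0.0140, exact permutation p = 0.0571). Its groups did not overlap, but AI7 and AI9 were close. Hoxa4 was at 0.718, 0.707, 0.761 and 0.563 FPKM in AI F and at 0.424, 0.172 and 0.514 FPKM in AI P, also without overlap. These were 2 of 28 tested members with all AI F lines above all AI P lines, beside 1.69% of all tested genes. Among members below the filter Hoxc11 and Hoxd3 did not overlap either, but the share of all genes below it was not counted. Hoxc11 was at 2 of the steps described above in both AI7 and AI9, so its groups were apart only after scaling. The exact permutation p of Hoxa4, Hoxa5, Hoxc11 and Hoxd3 was 0.0571, the smallest that 35 splits allow.

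Hoxc10, a lumbar and hindlimb gene, was at 2.37, 1.92, 2.44 and 3.43 FPKM in AI F and at 1.97, 1.01 and 1.07 FPKM in AI P (difference 0.60, SE 0.194, unadjusted limma p = 0.0167, exact permutation p = 0.114). The largest difference was that of Hoxb9 (0.73, SE 0.319, unadjusted limma p = 0.0533, exact permutation p = 0.114), at 4.22, 2.83, 6.03 and 6.05 FPKM in AI F and 4.18, 2.09 and 1.40 FPKM in AI P. In both genes AI9 lay inside the AI F range and GS4 and GS9 lay below it. Hoxb2 had the second largest difference (0.66, SE 0.404), at 4.41, 7.05, 13.2 and 6.83 FPKM in AI F and 7.74, 2.37 and 4.0 FPKM in AI P, so AI9 was above 3 of the 4 AI F lines.

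The AI difference depended on which lines were set beside each other. Within the newly derived lines (AI3, AI7 and AI10 against AI9) 29 of 39 members were higher in F, with a median difference of 0.08. Within the previously identified lines (GS32 against GS4 and GS9) 35 of 39 were higher, with a median of 0.60. With 1 line in an arm of each, neither was tested. Without GS9 and GS32, the lines with conflicting source entries, 26 of the 28 tested members were still higher in AI F, with a median of 0.35, and 1 member instead of 9 had an unadjusted p under 0.05. That count was 1 without GS4, 2 without GS9, 5 without GS32 and 6 without AI10, and it was 18 without AI7 or without AI9. With derivation (new or previously identified) as a term it was 3. In AN the count of 3 was 10 without AN1, 1 without AN3 and 0 without AN9 or without AN20. For these refits and those below, the share of all tested genes at an unadjusted p was not counted. The changes in count therefore cannot be called particular to Hox genes.

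**Figure D3:**
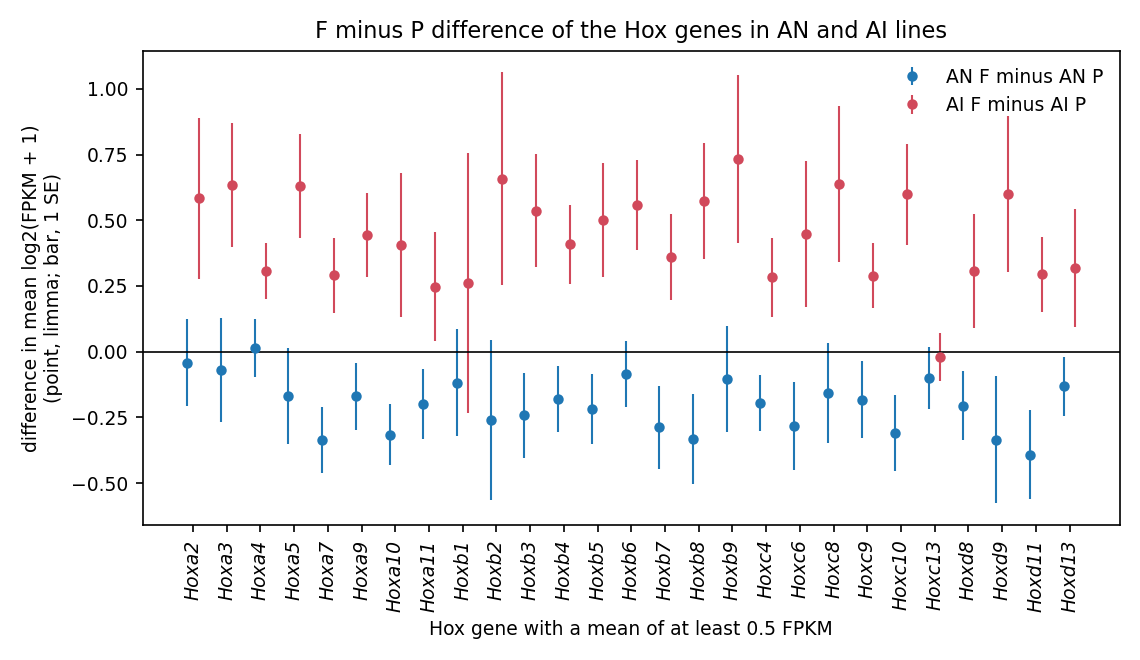
F minus P difference in mean log2(FPKM + 1) for 27 of the 28 Hox genes with a mean of at least 0.5 FPKM, in AN (blue) and AI lines (red), with points from limma and bars of 1 SE. Points lie mostly below 0 in AN, with a median of -0.19 over the 28, and mostly above 0 in AI, with a median of 0.45.

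The difference between the AI and AN effects was tested as an interaction in a fit of all 16 lines. The effect was more positive in AI for all 28 tested members, with a median of 0.65 beside -0.04 over all tested genes, and none was called. With limma 0 members and 0% of all genes had an adjusted p under 0.05, and the smallest member value was 0.290. At an unadjusted p under 0.05, 19 members had a more positive effect in AI, beside 8.3% of all tested genes. Hoxc10 had the smallest p (0.91, SE 0.247, unadjusted p = 0.00221, and exact permutation p = 0.00771 over 4410 relabelings within the derivation methods). The relabelings take F and P as exchangeable in both methods, so the permutation p does not test equal effects alone. Without AI9, 3 members passed, Hoxb5, Hoxb8 and Hoxc10, the smallest adjusted p being 0.0339, among 651 genes called. The count at an unadjusted p then was 23, and it fell to 8 without GS9 and GS32, to 10 without GS9, to 12 without AN9, AN20, GS4 or GS32 and to 1 with the fibroblast marker mean as a covariate.

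AI was compared with AN to ask whether the derivation method itself went with Hox levels. In limma, with both states weighted equally, the values were close, with a median difference of 0.02 over the 28 tested members, 17 higher and 11 lower in AI, and the median over all genes was -0.00. With limma 0 members and 0% of all genes were called. At an unadjusted p under 0.05 the count was 0 members, beside 3.52% of all tested genes in either direction. The largest difference was that of Hoxb2 (0.31, SE 0.259, unadjusted p = 0.251). The count of members higher in AI ran from 7 without AI9 to 22 without AI7, and was 27 without the 3 previously identified lines.

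The Hox genes varied together with markers of other cell types, whose values are set beside the comparisons above. A list of 30 genes of fibroblasts, the cell type of the feeders on which the AN blastocysts were plated, had a mean log2(FPKM + 1) from 3.44 in GS9 and 3.85 in GS4 to 5.24 in GS32. All 30 were above 0 in every line. Col1a1, a defining collagen of fibroblasts, ran from 27.4 FPKM in GS9 to 231 FPKM in GS32. The list's range was 4.10 to 4.89 in AN F, 4.35 to 5.02 in AN P, 4.21 to 5.24 in AI F and 3.44 to 4.83 in AI P. In AI F against AI P, 28 of 28 tested fibroblast genes were higher in AI F, with a median difference of 0.90 and 6 at an unadjusted p under 0.05. In AN F against AN P, 25 of 28 were lower, with a median of -0.23 and 0 at that p. In AI against AN the medians of the 2 sets differed in sign. There 22 of 28 fibroblast genes were lower in AI, with a median of -0.09 and 0 at that p. Of the 28 Hox genes 11 were lower, with a median of 0.02, whose sign changed in some refits (-0.05 without AI9). In the interaction 27 of 28 were more positive in AI, with a median of 1.15 and 18 at that p, beside 28 and 19 of the 28 Hox genes. Of the tested streak genes, 9 of 10 were lower in AN F and 9 of 10 higher in AI F, and of the 4 tested extraembryonic endoderm genes all were lower in AN F and higher in AI F, with 3 at an unadjusted p under 0.05 in the interaction. No gene of these lists was called in these comparisons. In bulk RNA, fewer cells of a type and less RNA per cell cannot be told apart.

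Over the 16 lines the mean log2(FPKM + 1) of the 39 Hox genes had a Pearson r of 0.88 (Spearman rho 0.92) with the mean of the fibroblast list. It was 0.88 within the 9 AN lines, 0.91 within the 7 AI lines and 0.89 without the 2 lines farthest from the list's median. With this mean as a covariate, the mean Hox difference of AI F against AI P went from 0.44 to 0.15, and the members at an unadjusted limma p under 0.05 from 9 to 0. In AN F against AN P the median went from -0.19 to -0.09, 20 instead of 26 of 28 members were lower, and 1 instead of 3 had an unadjusted p under 0.05. The part of fibroblast RNA in the Hox values was not tested directly, since feeder cells were not measured.

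The individual members did not all follow the fibroblast list, and position in the cluster went with the difference. Here each member was set beside the fibroblast list and beside a list of 16 primitive streak, paraxial and posterior mesoderm genes, which mark the first mesoderm of the embryo. The means of these lists had an r of 0.26 with each other over the 16 lines. The position ranges used below were chosen after the values were seen, the points share the same libraries, and all correlations are descriptions.

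Hoxb1, the earliest gene of its cluster, had an r of 0.89 with the streak list and 0.16 with the fibroblast list. Hoxd1 had 0.80 and 0.05. Hoxb2 followed with 0.79 and 0.61, and Hoxa2 with 0.74 and 0.64. For the 8 members with position numbers 1 to 3 the median r was 0.77 with the streak list and 0.59 with the fibroblast list, and 6 of 8 were closer to the streak list.

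In the middle of the clusters the order was reversed. For the 15 members with numbers 4 to 8 the median r was 0.83 with the fibroblast list and 0.32 with the streak list, and 1 of 15, Hoxd4, was closer to the streak list. Hoxc8 had 0.95 and 0.40, Hoxb5 0.90 and 0.32, Hoxb8 0.89 and 0.49, and Hoxb4 0.88 and 0.32. The same held for most of the 10 members with numbers 9 to 11, with medians of 0.78 and 0.52. Hoxb9, the most extreme, had 0.96 and 0.31, and Hoxa11 0.88 and 0.20. Hoxd9 was the clearest exception, with an r of 0.90 with the streak list and 0.46 with the fibroblast list, and Hoxc9 (0.70 and 0.69) and Hoxc11 (0.60 and 0.39) were also closer to the streak list.

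The terminal members had lower median r with both lists than the other position ranges. For the 6 members with numbers 12 and 13 the medians were 0.40 with the fibroblast list and -0.20 with the streak list. Hoxd12 had 0.67 and -0.18, Hoxd13 0.65 and -0.14, Hoxc13 0.31 and -0.22, and Hoxb13, at a mean of 0.157 FPKM, 0.01 and -0.60. Hoxb13 and 3 others of these 6 lay near the detection limit. In all, 10 of 39 members were closer to the streak list, and 6 without the 2 lines farthest from each list's median. Of the 28 tested members, 11 had an r above 0.8 with the fibroblast list and 3 with the streak list, beside 5.89% and 2.56% of the other tested genes.

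**Figure D4:**
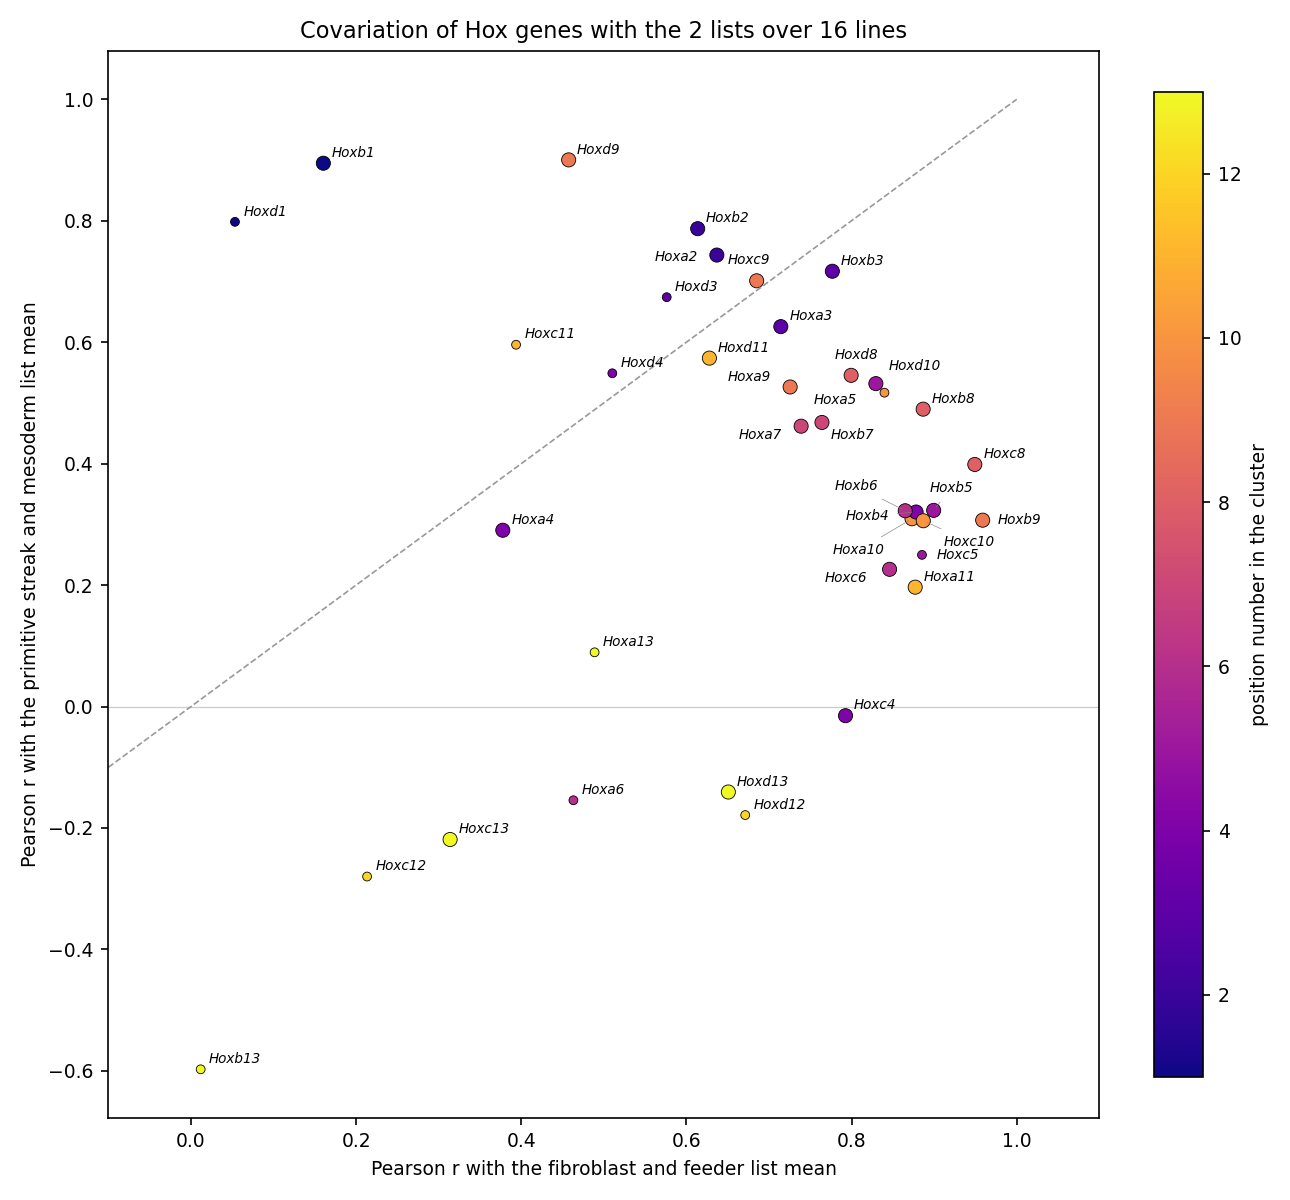
Pearson r of 38 Hox genes with the mean of the fibroblast list (horizontal) and of the streak list (vertical) over 16 lines, coloured by position number, with small points for means under 0.5 FPKM and a dashed line of equality. Hoxb1, Hoxd1 and Hoxd9 lie at the top left, at 0.80 to 0.90 with the streak list, and Hoxb9 and Hoxc8 at the right edge, at 0.95 to 0.96 with the fibroblast list.

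Within the derivation methods 8 of 39 members were closer to the streak list in AN and 8 in AI, beside 10 over all lines. Of the members numbered 1 to 3, 4 of 8 were closer to it within the AN lines. There Hoxa2 (0.51 with the streak list, 0.60 with the fibroblast list) and Hoxb2 (0.71 and 0.77) changed sides. Within the AI lines it was 5 of 8, and Hoxd3 changed sides. Of those numbered 9 to 11, 4 of 10 were closer to the streak list within AN, where Hoxd11 joined, and 1 of 10 within AI. Of those numbered 4 to 8, it was 0 of 15 within AN and 2 of 15 within AI, where Hoxa4 joined. The median r with the streak list for numbers 1 to 3 was 0.68 within AN and 0.85 within AI, and that with the fibroblast list for numbers 4 to 8 was 0.81 within AN and 0.87 within AI. Leaving out the 2 lines farthest from each list's median gave 0.91 for Hoxb1 with the streak list and 0.93 for Hoxb9 with the fibroblast list. On those lines 6 instead of 10 members were closer to the streak list, since Hoxa2 (0.66 with the streak list, 0.71 with the fibroblast list), Hoxc9 (0.49 and 0.66), Hoxd3 (0.49 and 0.53) and Hoxd4 (0.23 and 0.56) changed sides. Hoxb1, Hoxd1 and Hoxd9 were closer to the streak list in each of these sets of lines.

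Individual lines show the separation directly. AI10 and GS32 were close in the fibroblast list (4.96 and 5.24) and in Hoxb9 (6.03 and 6.05 FPKM). In the same lines Hoxb1 was 4.08 and 0.721 FPKM and Hoxd1 0.901 and 0.129 FPKM. The streak list mean was 2.47 in AI10, the highest of all lines, and 1.69 in GS32. AI3 also had a high fibroblast mean (4.89) and Hoxb9 at 4.22 FPKM, but its streak mean was 1.39 and its Hoxb1, at 0.154 FPKM, was the lowest of the 16.

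The opposite was seen in GS9. This line had the lowest fibroblast mean (3.44) and the lowest Hoxb9 (1.40 FPKM), while its streak mean was 1.82 and its Hoxb1 1.18 FPKM, above 9 of the other 15 lines. Hoxb1 and Hoxb9, in the same cluster, had an r of 0.28 with each other, whereas Hoxb1 and Hoxd1 had 0.88 and Hoxb9 and Hoxc8 0.95.

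**Figure D5:**
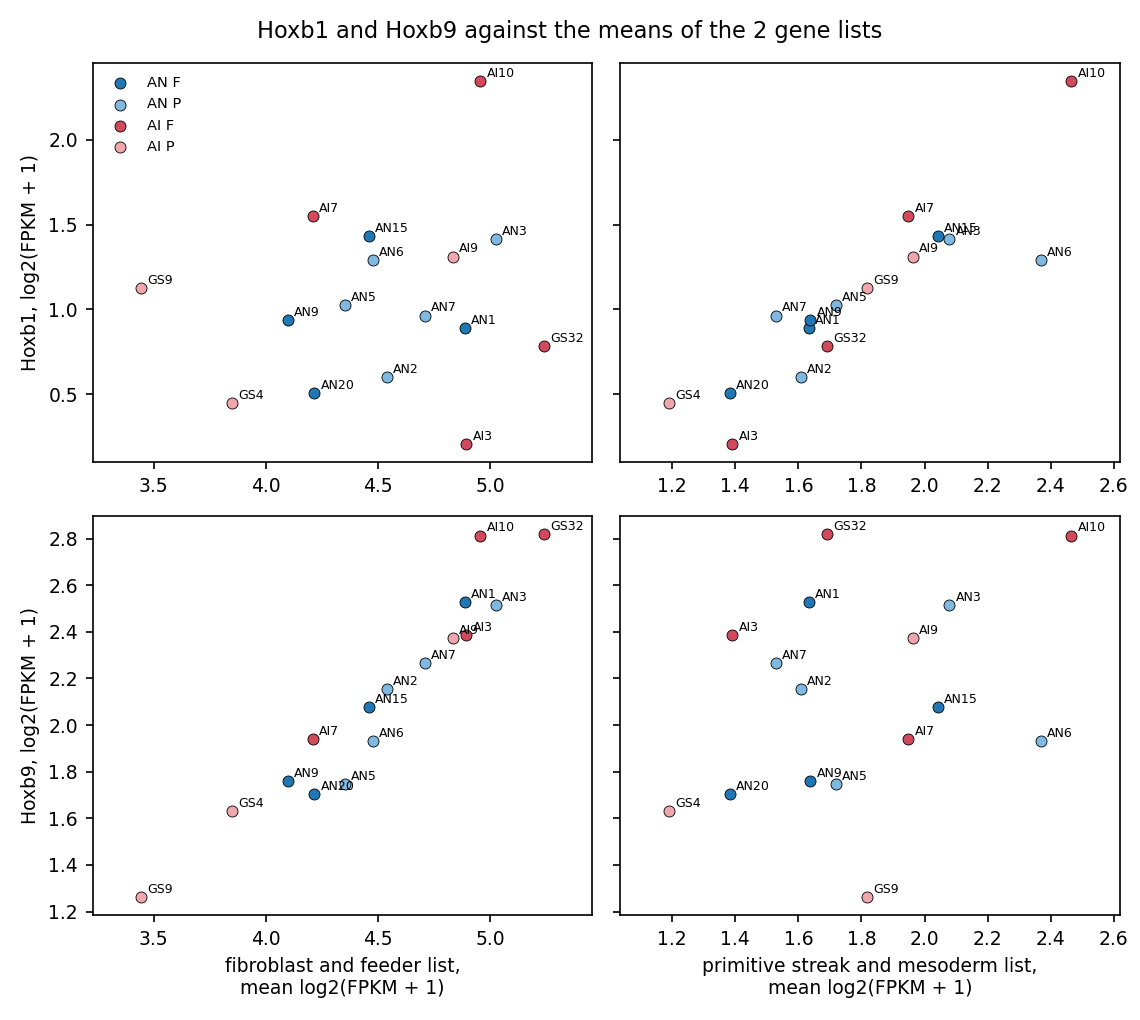
log2(FPKM + 1) of Hoxb1 (top) and Hoxb9 (bottom) against the mean of the fibroblast list (left) and of the streak list (right), 1 point per line, coloured by group. Hoxb1 follows the streak list, with an r of 0.89, and Hoxb9 the fibroblast list, with an r of 0.96.

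Evx1, a homeobox gene next to Hoxa13 that is active in the primitive streak, ranged from 0.193 FPKM in AN20 to 6.25 FPKM in AI10, with 3.96 FPKM in AN6, and had an r of 0.87 with Hoxb1. T, the brachyury gene of the streak, ranged from 5.85 FPKM in GS4 to 257 FPKM in AN6. AN6 also had the lowest pluripotency list mean (6.18) and the highest Hoxd11 (1.60 FPKM), with Hoxd9 at 2.01 FPKM, below AI10 at 2.88 FPKM.

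None of the listed regulators of Hox genes was called in any comparison by limma. Of 12 tested Cdx and retinoic acid genes, which switch on Hox genes in the embryo, 9 were lower in AN F and 7 higher in AI F, with 0 at an unadjusted p under 0.05 in either comparison. Crabp1, the retinoic acid binding protein with the highest mean of the list (102 FPKM), was higher in AI than AN by 0.58 (SE 0.191, unadjusted p = 0.00809, adjusted p = 0.999). Rxrg, a retinoid receptor, was the other at that level (0.23, SE 0.0904, adjusted p = 0.999). Cdx2, which acts on central and posterior Hox genes, ranged from 0.383 FPKM in AI3 to 10.5 FPKM in AI10.

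The TALE cofactors, which bind DNA together with Hox proteins, were all 11 above the filter, with Tgif1 highest (a mean of 73.2 FPKM). In AN F 6 of 11 were higher and in AI F 8 of 11, with 0 at an unadjusted p under 0.05 in either. Meis1 ranged from 1.62 FPKM in GS9 to 4.53 FPKM in GS32.

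The Polycomb list, whose products silence Hox clusters, had 31 members, all above the filter, with Rbbp7 highest (232 FPKM). In AN F 20 of 31 were higher, with 0 at an unadjusted p under 0.05. In AI F 14 were higher and 17 lower, with 3 higher and 1 lower at that p. Among the higher genes, Phf19 differed by 0.31 (SE 0.106, unadjusted p = 0.0224, adjusted p = 0.521) and Phc2 by 0.59 (SE 0.245, unadjusted p = 0.0454, adjusted p = 0.521). In the interaction 12 of 31 had a more positive effect in AI and 19 a more negative one. At an unadjusted p under 0.05 these were 3 and 6, beside 1095 and 1099 of all 13185 tested genes. The list mean ran from 4.25 to 4.45 over the lines and had an r of -0.70 (rho -0.76) with the Hox mean. Of 12 trithorax and H3K27 demethylase genes, which oppose Polycomb, 7 were higher in AN F and 7 in AI F, with 0 at an unadjusted p under 0.05. The mean of these 12 genes had an r of -0.49 (rho -0.55) with the Hox mean, the same sign as that of the Polycomb list. Dpy30 was the highest (210 FPKM), and Kdm6b, an H3K27 demethylase, differed by 0.40 in AI F (SE 0.187, adjusted p = 0.521).

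Other transcripts of the clusters were sparse. Of 19 listed noncoding and Evx genes, 9 were in the table. Hoxa11as, antisense to Hoxa11, ranged from 0.350 FPKM in AN9 to 1.06 FPKM in AI3 and was higher in AI F by 0.35 (SE 0.105, unadjusted p = 0.0115, adjusted p = 0.521). Without strand its reads cannot be told apart from those of Hoxa11. The microRNA genes Mir10a, Mir10b and Mir196a-2 were listed at 0 in all lines, Mir196b was above 0 in AI9, Mir615 in AN20 and AN5, and Mir196a-1, with the highest mean of this list, in 14 lines. MicroRNAs are poorly captured by such libraries, so these values say little of their level.

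The 73 other homeobox genes, of which 28 passed the filter, showed signs like those of the Hox genes. In AN F 22 of 28 were lower, with Prrx2 at an unadjusted p of 0.0410 (-0.50, SE 0.212, adjusted p = 0.636). In AI F 22 of 28 were higher, with 3 at that level, Irx2, Irx1 and Irx5, at differences of 0.36, 0.45 and 0.40. Pou3f1 had the highest mean (28 FPKM). The list mean had an r of 0.92 with the Hox mean.

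The markers of further cell types were also set beside the Hox genes. The adipocyte progenitor list, the cell of origin, had an r of 0.15 with the Hox mean, and 7 of its 12 genes passed the filter. This r was 0.11 within AN and 0.14 within AI, but 0.49 without the 2 lines farthest from the list's median. Ly6a was its highest gene (13.9 FPKM), Pparg, the adipogenic regulator, had a mean of 0.15 FPKM, and Fabp4 was higher in AI than AN by 0.46 (SE 0.137, unadjusted p = 0.00431, adjusted p = 0.999). The extraembryonic endoderm list had an r of 0.73, with 4 of 13 genes above the filter and Dab2 highest (3.69 FPKM). The neural list had an r of 0.64, with Nes highest (38.3 FPKM), and the pluripotency list had an r of -0.67. In AI F 9 of the 11 pluripotency genes were lower, Tdgf1 by -0.71 (SE 0.252, unadjusted p = 0.0245, adjusted p = 0.521). In the streak list, Foxc1 (0.69, SE 0.243, unadjusted p = 0.0246) and Foxc2 (0.66, SE 0.282, unadjusted p = 0.0498) were the 2 of 10 tested genes at that level in AI F, both with an adjusted p of 0.521, and T had the highest mean (69.0 FPKM).

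Among the tested genes outside the clusters, the 10 most like the Hox mean over the 16 lines were Pcdhgc3, Itgb5, Dmpk, Dap, Csf1, Fzd1, App, Tsku, Sidt2 and Efemp2. Their r ran from 0.97 for Pcdhgc3 to 0.95 for Efemp2. Csf1, the macrophage growth factor, ranged from 11.2 to 72.1 FPKM and App, the amyloid precursor, from 40.6 to 142 FPKM.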

How the data were processed

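Per the labels, libraries were made with NEBNext kits and sequenced as single 50-nucleotide reads on an Illumina HiSeq-2500. The authors mapped reads to mm9 with TopHat (TopHat2 2.1.0) and computed FPKM with Cufflinks 2.2.1. The submitters' processing notes also name HTSeq. An mm9 GTF annotation was used, whose source, like the library normalization, is not given in the sources used here. The deposited FPKM table was used as it stands.

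Values were transformed to log2(FPKM + 1), and the 13185 genes with a mean of at least 0.5 FPKM were fitted with limma 3.58.1 (R 4.3.3) with a mean-variance trend. AN lines and AI lines were fitted apart, and AI against AN (F and P weighted equally) and the interaction over all 16 lines. P-values were adjusted by Benjamini-Hochberg over all tested genes. The authors' Cuffdiff needs reads and was not run. Single members were also tested by exact two-sided permutation (scipy 1.17.1), p being 2 times the smaller tail. The fits were checked on simulated data. Replicates were separate lines with 1 library each.

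Named genes were most members with a mean of at least 0.5 FPKM or an unadjusted or exact p under 0.05, and the highest member of each cluster. Also named were up to 3 genes of each other list and the 10 genes most like the Hox mean. The members and lists were chosen with earlier results of these data known. Gene positions are from GENCODE vM1 (mm9), where all 39 names were found, and upstream sequences from RefSeq (GRCm38.p6). No coordinates were moved between builds. Some items are not reported here by name, though the counts include them. Alternatives were other pseudocounts, filters, scalings, covariates, thresholds and sets of lines.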

Additional observations from a re-analysis of the deposited data

Results flagged for a closer look

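Distant values were sought in 87 groups of 4 or 5 lines, for the 28 Hox genes with a mean of at least 0.5 FPKM and for their sum. By Dixon's criterion at 95%, 6 values lay far from the rest of their group, in AN1, AN3, AI7 and AI10. Chance gives about 4.35, but the genes share libraries, so the spread around that number is not known. Hoxb5 was at 0.871 FPKM in AN1, beside 0.284 to 0.361 in the other AN F lines, and at 0.478 FPKM in AI7, beside 1.13 to 1.25 in the other AI F lines. Hoxb6 was at 0.609 FPKM in AI7, beside 1.27 to 1.40. Hoxd9 was at 2.88 FPKM in AI10, beside 0.632 to 0.966. In AN3 Hoxa10 was at 2.56 FPKM, beside 1.71 to 1.86 in the other AN P lines, and Hoxc8 at 4.20 FPKM, beside 2.14 to 2.68. AI7 had the lowest fibroblast marker mean of the AI F lines (4.21), AI10 the highest streak marker mean (2.47) and AN3 the highest fibroblast marker mean of the AN lines (5.02). The part of these marker levels in the distant values was not tested.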

How the results depend on the processing

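No member was called under any alternative at an adjusted p under 0.05, except the 3 of the interaction without AI9. At an adjusted p under 0.1, which was applied to the main fits only, none was called either. At an unadjusted p the members called were 3 in AN, 9 in AI and 19 in the interaction, and all genes called 792, 1025, 464 (AI against AN) and 2194. The mean member difference of AI was 0.746 with a pseudocount of 0.1 and 0.146 with the fibroblast covariate, and that of the interaction 1.08 and 0.202. Genes called in AI against AN were 1 with derivation as a term, 9 without the 3 previously identified lines and 1 without GS9 and GS32, and in AI F against AI P 6 without GS9 and GS32, a set chosen after seeing the data. The sign changed in AI against AN for Hoxc6 (0.0119 with passage, 0.0210 with the fibroblast covariate, 0.0669 without the previously identified lines), Hoxa5 (0.0177 with derivation, 0.0893 without those lines) and Hoxd13 (-0.0206 with derivation). With the fibroblast covariate it also changed for Hoxb2 in AN (0.00447) and for Hoxb9 (-0.0496) and Hoxc8 (-0.0217) in the interaction. The causes were not tested. Signs were followed only for members at an unadjusted p under 0.05 in a comparison and the highest of each cluster. These were 7 in AN, 12 in AI, 4 in AI against AN and 21 in the interaction. Apart from the changes given here and below, they kept their direction. Over all 28 tested members more changed. With the fibroblast covariate 8 instead of 2 were higher in AN F and 4 instead of 1 lower in AI F. In the interaction 5 instead of 0 were negative.

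Leaving out each line in turn, the genes called ranged from 0 to 1 in AN, 0 to 5 in AI (5 without GS9), 0 to 1 in AI against AN and 0 to 651 in the interaction, and members called in the interaction from 0 to 3 (both without AI9). The mean member difference ranged from -0.274 (without AN1) to -0.0991 (without AN20) in AN, 0.335 (GS4) to 0.596 (AI9) in AI, -0.0622 (AI9) to 0.0681 (GS4) in AI against AN and 0.520 (GS4) to 0.781 (AI9) in the interaction. Hoxc6 in AI against AN ranged from -0.113 (without AI9) to 0.0750 and changed sign to 0.0122 (without AN1), 0.0174 (AN3), 0.0750 (AI7) and 0.0477 (GS4). No paired analysis was possible because the replicate numbers only name lines. Read depth is not known beyond its relative value, and members under 0.5 FPKM rest on few reads.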
